A study of Mus musculus with 18 samples.

Results

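Whole-testis RNA from mice given streptozotocin together with alginate oligosaccharide was compared with RNA from control testis, to ask which transcripts still differed from control in dosed animals. The comparison used 6 of the 18 libraries of the study, 3 per group, chosen by their treatment labels alone, and covered every gene of the table. All mice were of the outbred ICR strain and were 10 weeks old. The control group is described by its name only. The second group received streptozotocin (STZ), a glucose analogue toxic to the beta cells of the pancreas that is used to make rodents diabetic, and alginate oligosaccharide (AOS), short sugar chains cut from the alginate of brown algae, at 10 mg/kg. It is called STZ + AOS here. The other 12 libraries were 3 each of AOS at 10 mg/kg alone, STZ alone, and STZ followed by a faecal microbiota transplant (FMT) from AOS-dosed or from control donors. They entered the statistical model and are given beside the results as context. The STZ dose, its route and the interval before collection were not stated in the labels. Nor do the labels say that the libraries of a group came from separate animals, so the p-values reflect the spread among these libraries alone, which may be technical.

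The testis holds germ cells at every step from spermatogonia to elongating spermatids inside tubules lined by Sertoli cells. Between the tubules lie Leydig cells, which take up or make cholesterol and turn it into testosterone through the carrier StAR and a chain of steroidogenic enzymes under the control of luteinizing hormone. Mouse Leydig cells also express several tissue kallikreins, serine proteases encoded by a tight cluster of near-identical genes on chromosome 7. Diabetes is known to lower testosterone output and to harm spermatogenesis.

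The values are normalized expression levels, taken as FPKM, that is, fragment numbers corrected for transcript length and library size. Differences are given as log2(FPKM + 1) in STZ + AOS minus control, a scale that understates the change of low genes, and were tested with limma across 14164 genes with Benjamini-Hochberg adjustment. The table gives no read counts, so no counting interval was computed, and FPKM summed to 586486 to 603475 per library in the 6 libraries compared. Markers of the labelled tissue were present: Prm2, a protamine of condensing spermatids, lay between 9939 and 12848 FPKM and Sycp3, part of the synaptonemal complex of meiosis, between 184 and 199.9 FPKM in these 6 libraries. Of the control libraries, replicate 3 stood apart, at −18.6 on the second principal component of the 18 libraries against −1.24 and 1.07 for the others. It also carried transcripts typical of the epididymis, the duct attached to the testis, with Crisp1 at 159 FPKM against 2.71 and 0.15 in the other control libraries, Spink8 at 42.6 against 1.13 and 0.63, and Adam7 at 8.62 against 0.07 and 0. Among STZ + AOS libraries Crisp1 was at 0.1, 7.59 and 0.3 FPKM.

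STZ + AOS testis was close to control testis over most genes. Among all 14164 genes, 6 passed an adjusted p of 0.05, or 0.0424%. Of these, 4 fell (0.0282% of genes): the kallikreins Klk1b21, Klk1b24 and Klk1b27 and the glutathione transferase Gsta3. The other 2 rose (0.0141%): Aplp1, an amyloid precursor-like membrane protein known from neurons, and Iglon5, a cell adhesion molecule of the immunoglobulin superfamily. At an unadjusted p under 0.05, 633 genes were higher (4.47%) and 497 were lower (3.51%), and the median difference of all genes was 0.0028. The 95% confidence interval of the difference lay within 1.5-fold in either direction for 12669 genes, or 89.45% (interval from the same limma fit).

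**Figure D1:**
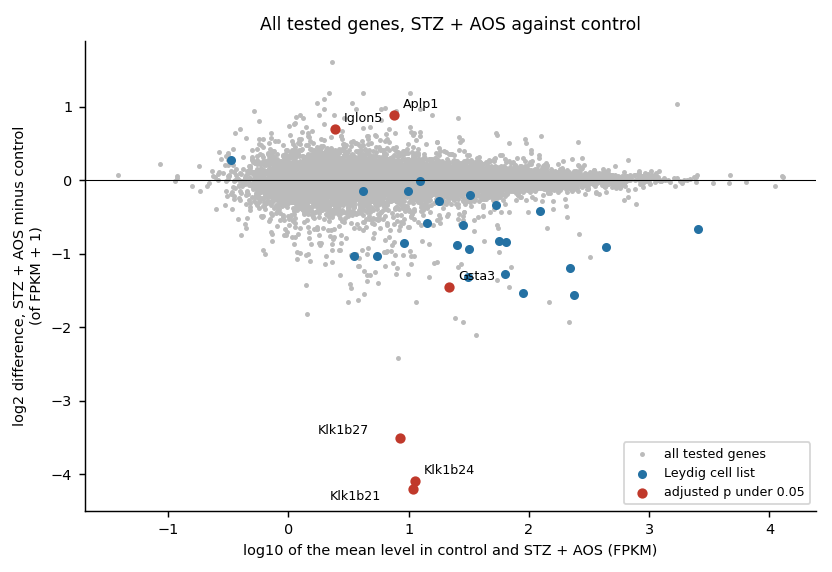
Each point is 1 of the 14164 genes tested, with the log10 of its mean FPKM over the 6 libraries on the x axis and the log2(FPKM + 1) difference, STZ + AOS minus control, on the y axis. The 6 genes that passed the test are in red with their names, the 24 tested Leydig cell genes in blue, and 23 of these 24 lie below zero.

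The number of genes called depended on which libraries shared the estimate of the spread. With only the 6 libraries compared, 6 genes were called higher (0.0424%) and 70 lower (0.494%), and without the 3 STZ libraries, in a fit of 15 libraries chosen after seeing the data, 38 were called higher (0.268%) and 126 lower (0.89%). The STZ libraries held 33.1% of the residual variance of the 18, and leaving out STZ replicate 1 alone gave 147 calls, against 8 without STZ replicate 2 and 14 without replicate 3. All 6 genes above were among the 164 of the 15-library fit, and all but Iglon5 (adjusted p = 0.078) among the 76 of the 6-library limma fit. In the 18-library limma fit 0 genes were called without STZ + AOS replicate 2 (769 at an unadjusted p under 0.05) or without control replicate 1 (901), and Klk1b24 alone without control replicate 2 (968). In the 15-library fit all 6 were called whichever of the 6 libraries was left out.

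The kallikreins showed the widest gap between the groups. Klk1b24 (chromosome 7, 44188236 to 44192455, GRCm38, plus strand) was at 29.6, 23.4 and 13.7 FPKM in control and at 0.44, 0 and 0.53 in STZ + AOS, a difference of −4.10 ± 0.48 (SE, limma adjusted p = 0.00406). Klk1b21 (44102328 to 44106583, plus strand) was at 26.5, 21.6 and 15.95 FPKM in control and at 0.34, 0 and 0.25 in STZ + AOS (−4.21 ± 0.56, adjusted p = 0.00763). Klk1b27 (44052290 to 44056712, plus strand) was at 22.4, 16.8 and 10.7 FPKM in control and at 0.43, 0.52 and 0.52 in STZ + AOS (−3.50 ± 0.46, adjusted p = 0.00763). Every STZ + AOS library was near or at the lowest listed values for these 3 genes, and the lowest control library was above 10 FPKM. Control replicate 3 was the lowest of the controls for all of them, and without it the differences were −4.39 for Klk1b21 and Klk1b24 and −3.77 for Klk1b27. All 3 lost the call without STZ + AOS replicate 2 (adjusted p = 0.0545 for Klk1b24 to 0.0806 for Klk1b21) and without control replicate 1 (0.0531 to 0.0621). Klk1b21 and Klk1b27 also lost it without control replicate 2 (0.0622 each).

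These genes were below control in every other group as well. Mean Klk1b24 was 22.3 ± 8.02 FPKM in control (SD, n = 3), 7.5 ± 1.6 in AOS, 2.66 ± 1.69 in STZ with AOS-donor FMT and 2.93 ± 0.465 in STZ with control-donor FMT. Its STZ libraries were at 0.78, 3.66 and 9.59 FPKM. The difference from control was −1.40 in AOS (limma adjusted p = 0.447) and −2.32 in STZ (0.000826), and these contrasts share the control libraries with the one above. STZ + AOS was lower than STZ alone for Klk1b24 (−1.77, limma adjusted p = 0.00561), and by −2.43 to −1.15 when 1 STZ library was left out, with the call kept each time. The same difference was −1.41 for Klk1b27 (adjusted p = 0.016) and −1.58 for Klk1b21 (0.0268), and these calls were less stable. For Klk1b27 it was lost with quantile normalization (0.0515) and without STZ replicate 3 (−0.82, 0.109). For Klk1b21 it was lost with median centring or quantile normalization (0.0565 each), without STZ + AOS replicates 2 (0.0768) or 3 (0.0532), and without STZ replicates 2 (0.0559) or 3 (−0.77, 0.179). Without STZ replicate 1 the differences were −2.08 for Klk1b27 and −2.37 for Klk1b21. With a pseudocount of 0.1 the 3 differences were −3.29 for Klk1b24, −2.18 for Klk1b27 and −2.97 for Klk1b21. The difference between STZ + AOS and AOS alone was −2.69 for Klk1b24 and missed the threshold (adjusted p = 0.101).

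Other members of the cluster differed in how far they were from control. Of 12 kallikreins tested, 3 were called lower (0.0282% of all genes), 5 were lower at an unadjusted p under 0.05 (3.51%), and 6 had all STZ + AOS libraries below all controls (8.86%). The median of the kallikrein list was −0.62, or −0.95 with a pseudocount of 0.1 and −0.32 with no filter on low values. The pseudocount of 0.1 also moved the difference of Klk1b21 from −4.21 to −6.40. Klk1b22 was listed at 0 in all 3 STZ + AOS libraries against 4.26, 3.43 and 0.92 FPKM in control (adjusted p = 0.0529). Klk1b16 was at 2.46, 1.1 and 1.37 FPKM in control and at 0.45, 0.54 and 0.54 in STZ + AOS (−0.77, adjusted p = 0.188). Klk1b26 was lower in every STZ + AOS library too, at 1.58 to 3.18 FPKM against 4.48 to 6.36 (adjusted p = 0.701). By contrast Klk1b8, the member with the highest level in these libraries, was at 85.8, 81.7 and 75.1 FPKM in control and at 74.3, 77 and 75.4 in STZ + AOS, and its interval ran from −0.47 to 0.29. Klk1b3, Klk1b4, Klk1b5 and Klk1b9 had differences between −0.17 and 0.09. Klk1 was at 7.45, 8.18 and 4.48 FPKM in control and at 4.75, 3.34 and 5.44 in STZ + AOS, with overlap.

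The cluster is a case where sequence limits the measurement, and the bases upstream of the members are shown for that reason and because 3 members of the cluster moved together. The sequences are the 250 bases before the RefSeq start site (GRCm38.p6, plus strand, 5′ to 3′) at chr7:44102042-44102291 for Klk1b21, chr7:44187986-44188235 for Klk1b24, chr7:44052040-44052289 for Klk1b27 and chr7:43950416-43950665 for Klk1b8, which did not pass the test. Capitals mark the longest stretch identical in the 3 genes called lower, 89 bases, looked for after the calls were known.
Klk1b21: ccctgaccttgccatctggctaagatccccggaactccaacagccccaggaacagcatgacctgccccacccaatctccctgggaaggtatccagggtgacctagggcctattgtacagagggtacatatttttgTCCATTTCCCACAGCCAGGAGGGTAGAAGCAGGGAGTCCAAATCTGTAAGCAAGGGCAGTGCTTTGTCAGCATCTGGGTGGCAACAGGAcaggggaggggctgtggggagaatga
Klk1b24: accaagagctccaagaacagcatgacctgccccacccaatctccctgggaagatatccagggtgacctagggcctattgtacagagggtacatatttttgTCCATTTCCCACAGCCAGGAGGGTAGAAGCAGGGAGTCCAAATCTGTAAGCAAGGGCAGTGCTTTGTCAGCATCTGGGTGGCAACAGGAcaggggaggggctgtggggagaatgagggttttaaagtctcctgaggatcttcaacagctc
Klk1b27: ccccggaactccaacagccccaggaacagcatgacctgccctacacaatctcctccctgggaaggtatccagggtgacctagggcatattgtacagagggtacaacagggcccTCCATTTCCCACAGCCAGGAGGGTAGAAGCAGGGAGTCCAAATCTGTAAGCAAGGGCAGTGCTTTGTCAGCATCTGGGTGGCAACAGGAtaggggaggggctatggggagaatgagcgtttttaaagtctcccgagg
Klk1b8: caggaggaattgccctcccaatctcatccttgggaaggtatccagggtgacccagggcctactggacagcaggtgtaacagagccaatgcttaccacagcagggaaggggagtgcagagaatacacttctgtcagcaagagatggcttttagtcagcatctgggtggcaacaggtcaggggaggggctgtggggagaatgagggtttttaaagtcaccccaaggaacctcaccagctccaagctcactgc
The stretch begins 115, 150 and 137 bases before the RefSeq start site of Klk1b21, Klk1b24 and Klk1b27. For Klk1b21 that site lies upstream of the gene start given above (44102328), while for Klk1b24 and Klk1b27 the 2 annotations agree. The distances therefore depend on the annotation used. The stretch was found whole in 3 of 32851 RefSeq promoters, and the longest piece of it in the other 9 tested kallikreins was 24 bases. Only exact matches counted, so a copy with a few changed letters was missed. Over the 250 bases, pairwise identity was 75.1% to 82.6% among the 3 genes. Between these and the other 9 it was 41.9% to 80.7%, highest for Klk1b24 with Klk1b26. The promoters of the cluster are copies of each other, so this describes the letters only. Pairwise identity of the transcripts of the 3 genes was 90.8% to 92.7%, and 29.1% of the 50-base windows of Klk1b21, 33.9% of those of Klk1b24 and 14.3% of those of Klk1b27 also occurred in another gene. Reads from such windows could be placed on either copy, so the level of each single gene is uncertain. The letters AAGGTCA, a site of the steroidogenic factor NR5A1, searched on both strands, occurred in 2 of the 12 kallikrein promoters (Klk1 and Klk1b21), in 1 of the 17 matched Leydig promoters (Sult1e1) and in 4.72% of all promoters. The other motifs searched were AGAACA, an androgen receptor half-site (2 of 12, 6 of 17 and 19%), and TATAAA, the TATA box (0 of 12, 3 of 17 and 13.6%). The cyclic AMP response element TGACGTCA was in 0 of 12, 0 of 17 and 1.79%. The motif searches covered 250 bases before and 50 after the start site. A list gene counted if any of its promoter entries held the letters, while the share of all promoters is per entry, so these measures differ.

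**Figure D2:**
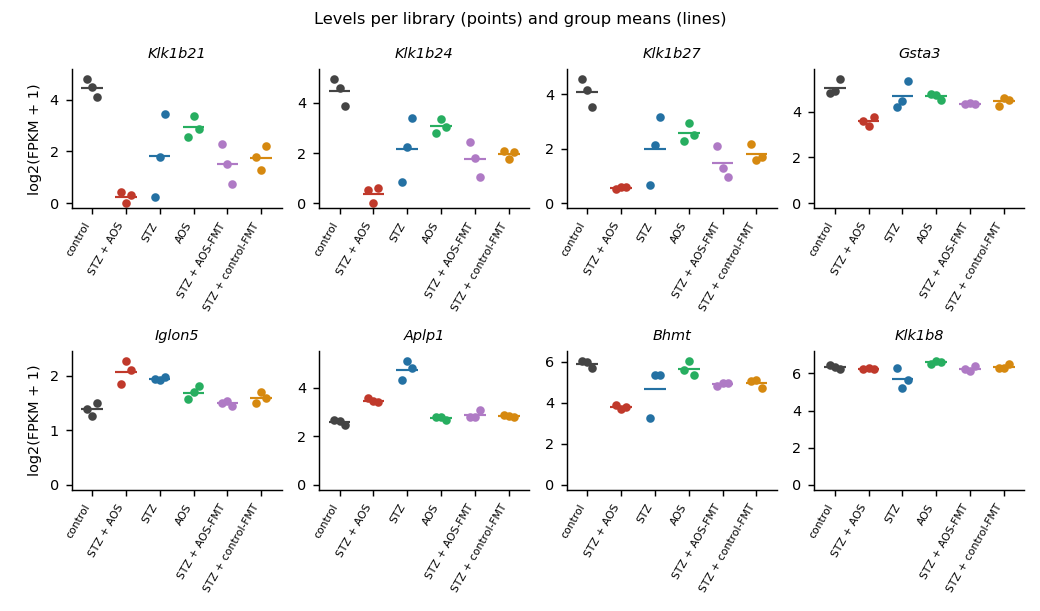
Levels as log2(FPKM + 1) in all 18 libraries (points) with group means (lines) for the 6 genes that passed the test and, for comparison, Bhmt and Klk1b8. The 3 STZ + AOS libraries lie below the 3 control libraries for Klk1b21, Klk1b24, Klk1b27, Gsta3 and Bhmt and above them for Iglon5 and Aplp1, while those of Klk1b8 overlap.

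Gsta3, an alpha-class glutathione transferase (chromosome 1, 21240589 to 21265661, plus strand), was the fourth gene that fell. It was at 26.9, 28.5 and 41.6 FPKM in control and at 11.03, 9.49 and 12.5 in STZ + AOS (−1.45 ± 0.22 SE, limma adjusted p = 0.02). The groups did not overlap, and control replicate 3 was the highest library. Gsta3 was at 21.7 to 26.2 FPKM in AOS and at 17.5, 20.99 and 39.8 in STZ, and STZ + AOS was lower than STZ (−1.10, limma adjusted p = 0.00068). With AOS-donor and control-donor FMT Gsta3 was at 18.95 to 19.96 and at 18.1 to 22.9 FPKM, also below every control library. Its call was lost without any 1 of STZ + AOS replicates 1 and 2 and control replicates 1, 2 and 3 (adjusted p = 0.0621 to 0.169).

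Aplp1 (chromosome 7, 30434982 to 30445535, minus strand) was above control in STZ testis too. It was at 5.43, 5.22 and 4.43 FPKM in control, at 10.8, 9.96 and 9.53 in STZ + AOS and at 19.1, 33.6 and 26.7 in STZ. The STZ + AOS libraries formed a level of their own between the other groups, 0.88 ± 0.14 (SE) above control (limma adjusted p = 0.0344) and lower than STZ (−1.27, adjusted p = 4.28e-06). In the remaining groups it was at 5.35 to 7.43 FPKM. Leaving out any 1 of the 6 libraries ended the Aplp1 call (adjusted p = 0.0657 to 0.234).

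Iglon5 (chromosome 7, 43472904 to 43490075, minus strand) was at 1.62, 1.41 and 1.83 FPKM in control and at 2.59, 3.86 and 3.3 in STZ + AOS (0.69 ± 0.10 SE, limma adjusted p = 0.02). It was at 2.87, 2.79 and 2.94 FPKM in STZ, which was 0.56 above control (limma adjusted p = 0.000338), and the difference between STZ + AOS and STZ was 0.13 (0.322). Both depended on the scaling. With median centring STZ minus control was 0.22 (limma adjusted p = 0.0792) and STZ + AOS minus STZ 0.47 (0.00121), and with quantile normalization they were 0.17 (0.204) and 0.54 (0.00111). Its level was low in all groups, and it was left out by a filter at 5 FPKM. The call was lost without STZ + AOS replicates 2 or 3 and without control replicates 1 or 2 (adjusted p = 0.0657 to 0.156).

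Among the next genes by p on the lower side, Bhmt, the liver and kidney enzyme that uses betaine to turn homocysteine into methionine, was at 65.4, 62.0 and 49.97 FPKM in control and at 13.8, 11.8 and 13.1 in STZ + AOS (−2.11 ± 0.38 SE, limma adjusted p = 0.0645). All STZ + AOS libraries were far below all controls. STZ replicate 1 was at 8.7 FPKM while STZ replicates 2 and 3 were at 40.5 and 40.1, and limma adjusted p was 2.94e-05 in the 15-library fit without STZ. Mean Bhmt was 28.9 FPKM with AOS-donor FMT, 30.5 with control-donor FMT and 50.3 in AOS, against 59.1 in control. Gnmt and Cbs, further enzymes of methionine metabolism chosen after their values were seen, were at 2.41 to 3.94 against 1.01 to 2.08 FPKM and at 0.73 to 1.13 against 0.19 to 0.48 FPKM. Of 17 one-carbon genes 4 were lower (3.51% of all genes) and 1 higher (4.47%) at an unadjusted p under 0.05. Their median was −0.11, or −0.03 with a filter at 5 FPKM, −0.06 without control replicate 2 and −0.07 without STZ + AOS replicate 1. The rest of the 10 lowest p on this side were Ccr4, a chemokine receptor (1.7 to 2.45 FPKM in control, 0.62 to 1.04 in STZ + AOS), Heatr9 (24.1 to 24.8 against 15.7 to 19.2), 2700049A03Rik (38.9 to 44.8 against 24.8 to 32.8) and Tgfbr3l (6.46 to 7.85 against 3.76 to 5.08). None overlapped between the groups, which held for 8.86% of all genes in this direction and is likely in genes chosen by small p. Their adjusted p lay between 0.0645 and 0.0684.

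On the higher side, Ctgf, a matrix-associated growth factor induced by mechanical and TGF-beta signals, was at 9.25, 12.1 and 10.3 FPKM in control and at 18.1, 27.8 and 16.2 in STZ + AOS (0.88 ± 0.17 SE, limma adjusted p = 0.095). STZ libraries were at 24.6 to 33.2 FPKM, which overlapped STZ + AOS through its replicate 2. Vill, a villin-like actin-binding protein, was at 1.23 to 1.81 FPKM in control and at 2.67 to 3.24 in STZ + AOS (adjusted p = 0.0645). The signalling adaptors Grb7 (0.75 to 1.2 against 1.74 to 2.31 FPKM) and Bcar1 (9.45 to 10.6 against 11.8 to 13.1 FPKM) were higher by 0.64 and 0.27. Fitm1, a lipid droplet protein, was at 4.86 to 6.99 against 8.96 to 10.6 FPKM, Hap1, the huntingtin-associated protein, at 7.58 to 8.76 against 9.82 to 12.95, Limk2, a kinase acting on cofilin, at 12.2 to 13.3 against 15.3 to 15.96, and Wdr18 at 14.8 to 15.2 against 17.8 to 19.3. None of these passed the test in the 18-library fit, with adjusted p up to 0.172. Their libraries did not overlap between the groups, which held for 8.92% of all genes in this direction and is likely in genes chosen by small p. For some, control was the lowest group. Fitm1 means were 8.38 to 9.48 FPKM in AOS, STZ and the FMT groups against 5.80 in control, and Limk2 means 14.5 to 15.3 against 12.8. Mean Grb7 was 2.15 with AOS-donor and 2.23 with control-donor FMT, against 1.98 in STZ + AOS and 0.92 in control. Bcar1 was nearer control there, at 10.9 and 10.6 against 10.1.

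Leydig cell genes lay below control as a group in STZ + AOS testis. Of 27 listed genes 24 were tested. Their median difference was −0.84 against 0.0028 for all genes, 23 were below zero against 48.8% of all genes, and 19 had all STZ + AOS libraries below all controls (8.86% of all genes). At an unadjusted p under 0.05, 15 were lower (3.51% of all genes) and 0 higher, but 0 passed the adjusted test in the 18-library limma fit. In the limma fit of the 6 libraries 8 were called lower (0.494% of all genes), and in the fit without STZ 11 were (0.89%). The median SE of these 24 genes was 0.302 in the 18-library fit, 0.127 in the 6-library fit and 0.165 without STZ. In RNA from whole testis, fewer Leydig cells and less RNA per Leydig cell cannot be told apart.

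Without control replicate 3 the median was −0.786, and without STZ + AOS replicate 2 it was −0.622. The enzymes and the carrier of testosterone synthesis were among these genes, and members other than Star, Cyp17a1 and Insl3 were chosen after their values were seen. Star, which carries cholesterol into mitochondria, was at 37.6, 43.1 and 52.8 FPKM in control and at 18.6, 11.04 and 23.8 in STZ + AOS (−1.32, interval −2.17 to −0.48). Cyp11a1, which cleaves the side chain of cholesterol, was at 141, 115 and 142 against 56.1, 28.2 and 57.2 FPKM (−1.54, interval −2.73 to −0.34). Cyp17a1, the enzyme of androgen precursors, was at 375, 307 and 362 against 147, 67.0 and 161 FPKM (−1.56, interval −2.66 to −0.46). Every STZ + AOS library was below every control library for the 3 genes, and replicate 2 was the lowest. Hsd17b3, the last step to testosterone, was at 37.4 to 44.8 FPKM in control and at 17.5 to 25.1 in STZ + AOS, and Hsd3b1 at 64.5 to 81.6 against 25.6 to 53.8. Insl3, a peptide hormone of mature Leydig cells, was at 3345, 2929 and 3159.6 against 1938, 1828 and 2198 FPKM (−0.66, interval −1.71 to 0.39).

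Receptors and detoxifying enzymes of Leydig cells had the same direction. Lhcgr, the luteinizing hormone receptor, was at 6.3 to 8.27 FPKM in control and at 1.75 to 4.71 in STZ + AOS, and Prlr, the prolactin receptor, at 4.78 to 5.32 against 1.65 to 2.43. Ephx1, an epoxide hydrolase, was at 77.1 to 103 against 27.5 to 43.4 FPKM, Gstm1, a glutathione transferase, at 531 to 609 against 281 to 336, and Aldh1a1, a retinaldehyde dehydrogenase, at 246 to 427 against 128 to 136. Members with narrow gaps or none were Nr5a1, the steroidogenic transcription factor (11.1 to 13.8 against 10.6 to 13.5 FPKM, interval −0.43 to 0.40), Tspo (3.42 to 5.08 against 3.74 to 4.18 FPKM) and Por (9.81 to 10.8 against 8.66 to 9.83 FPKM). Hsd11b1 was the member above zero, at 0.16 to 0.22 against 0.32 to 0.58 FPKM.

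STZ testis alone did not form a single level for these genes. Cyp17a1 was at 79.0 FPKM in STZ replicate 1 and at 419 and 625 in replicates 2 and 3, and Insl3 at 1574 against 10967 and 11438. The whole list took 0.475%, 2.51% and 2.68% of summed FPKM in the 3 STZ libraries. It took 0.905%, 0.827% and 0.912% in control and 0.512%, 0.461% and 0.567% in STZ + AOS, so that STZ replicate 1 lay within the STZ + AOS range and the other STZ libraries above control. In the AOS group the median difference of the list from control was −0.21. Summed FPKM of the list was 3590 to 4954 in AOS, 4153 to 4754 with AOS-donor FMT and 4044 to 5167 with control-donor FMT. It was 4876 to 5455 in control and 2702.6 to 3345.5 in STZ + AOS. Mean Cyp17a1 was 238 and 248 FPKM in these FMT groups and 255 in AOS, against 348 in control and 125 in STZ + AOS. Whether the spread among STZ libraries bears on the comparison of STZ + AOS with control was not tested beyond the fits without them.

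**Figure D3:**
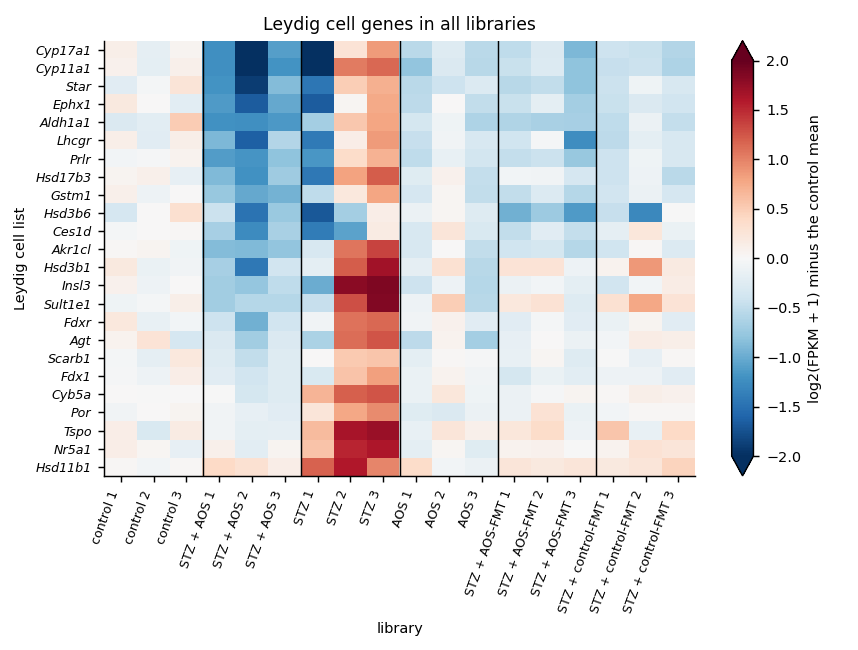
Each row is 1 of the 24 tested Leydig cell genes and each column 1 of the 18 libraries, with colour giving log2(FPKM + 1) minus the mean of the 3 control libraries and values beyond 2 in either direction drawn at the end of the scale. The STZ + AOS columns are blue for most rows, as is STZ replicate 1 for many, whereas STZ replicates 2 and 3 are red for most rows.

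Of the genes that supply sterols and unsaturated fatty acids, 0 passed the adjusted test in the 18-library limma fit, and most had values below control. Of 22 tested cholesterol genes 11 were lower and 0 higher at an unadjusted p under 0.05 (3.51% and 4.47% of all genes). Their median was −0.30, or −0.19 with a filter at 5 FPKM. The members named in this paragraph were chosen after their values were seen. Msmo1, which demethylates sterols, was at 22.5, 20.6 and 24.7 FPKM in control and at 10.4, 6.86 and 12.9 in STZ + AOS (−1.13, interval −1.83 to −0.43). The groups did not overlap, nor did they for Sc5d, a sterol desaturase, at 8.32 to 10.3 against 3.08 to 5.02 FPKM. In the 6-library limma fit 3 of the 22 were called lower (0.494% of all genes), Sc5d and Tm7sf2 among them, and in the fit without STZ 7 were (0.89%). Of 28 fatty acid genes 20 were below zero (48.8% of all genes), with a median of −0.09, or −0.16 with a filter at 5 FPKM. At an unadjusted p under 0.05, 7 of them were lower (3.51%) and 0 higher, and 7 and 8 were called lower in the 6-library fit (0.494%) and the fit without STZ (0.89%). Scd1, a stearoyl-CoA desaturase, was at 7.72, 5.94 and 6.71 FPKM in control and at 2.14, 2.1 and 2.29 in STZ + AOS. Fads2, which desaturates polyunsaturated fatty acids, was at 83.4 to 109 against 32.3 to 52.7 FPKM, and Cd36, a fatty acid and scavenger receptor, at 8.82 to 13.6 against 3.98 to 5.44. Their STZ values again differed between replicate 1 (2.02 for Scd1, 39.1 for Fads2) and the other STZ libraries (7.67 and 10.5, and 134 and 166). Leydig cells are rich in such enzymes, and the part that the Leydig cell genes above have in these values was not tested.

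Sertoli cell genes had a median slightly above zero, and 0 passed the adjusted test in the 18-library limma fit. Of 31 tested 7 were higher and 1 lower at an unadjusted p under 0.05 (4.47% and 3.51% of all genes), 12 had all STZ + AOS libraries above all controls (8.92% of all genes) and the median difference was 0.09, or 0.15 without control replicate 1. Cldn11, the claudin of the blood-testis barrier, was at 34.0, 32.1 and 33.3 FPKM in control and at 42.6, 39.9 and 40.5 in STZ + AOS (0.30, interval 0.14 to 0.46, limma adjusted p = 0.289). It was called higher in the 6-library limma fit (adjusted p = 0.0492), but not after median centring of those libraries (0.0558), and it was called in the fit without STZ (0.00823). Clu, the secreted chaperone clusterin, was at 517, 460.4 and 474 against 560.1, 555 and 536 FPKM. STZ testis was far above both groups for these genes, at 93.9 to 124 FPKM for Cldn11 and 1209 to 1545 for Clu. Kitl, the ligand of the germ cell receptor Kit, was chosen after its values were seen as the member that was lower, at 2.48 to 4.19 against 2.04 to 2.38 FPKM.

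Of the immediate early genes most were a little above control, and 0 passed the adjusted test in the 18-library limma fit. Of 21 immediate early genes, which respond within minutes to growth factors and stress, 19 were above zero (51.2% of all genes), and 5 were higher (4.47%) and 0 lower (3.51%) at an unadjusted p under 0.05. The median was 0.23, or 0.34 with a pseudocount of 0.1. Beside Ctgf these were Nr4a1, Fosl1, Dusp1 and Klf6, chosen after their values were seen. Nr4a1, an orphan nuclear receptor, was at 21.4, 22.1 and 21.3 FPKM in control and at 26.2, 25.9 and 25.7 in STZ + AOS, a narrow range on each side with no overlap. Of 14 inflammatory and acute-phase genes 3 were higher (Serpina3n, Nfkbia and Cebpd) and 1 lower (Vcam1) at an unadjusted p under 0.05, against 4.47% and 3.51% of all genes, the last 3 chosen after their values were seen. Vcam1, an adhesion receptor for leukocytes, was at 19.6, 20.1 and 25.2 FPKM in control and at 8.22, 7.2 and 8.82 in STZ + AOS (−1.31, adjusted p 0.00367 in the 6-library limma fit). Macrophage genes had a median of −0.20, or −0.12 with a filter at 5 FPKM, with 18 of 20 below zero (48.8% of all genes) and 2 lower (3.51%) and 1 higher (4.47%) at an unadjusted p under 0.05. Among them Adgre1 was at 1.34 to 1.4 FPKM in control and at 0.72 to 1.26 in STZ + AOS, and Lyz2 at 16.8 to 18.7 against 13.95 to 21, with overlap.

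**Figure D4:**
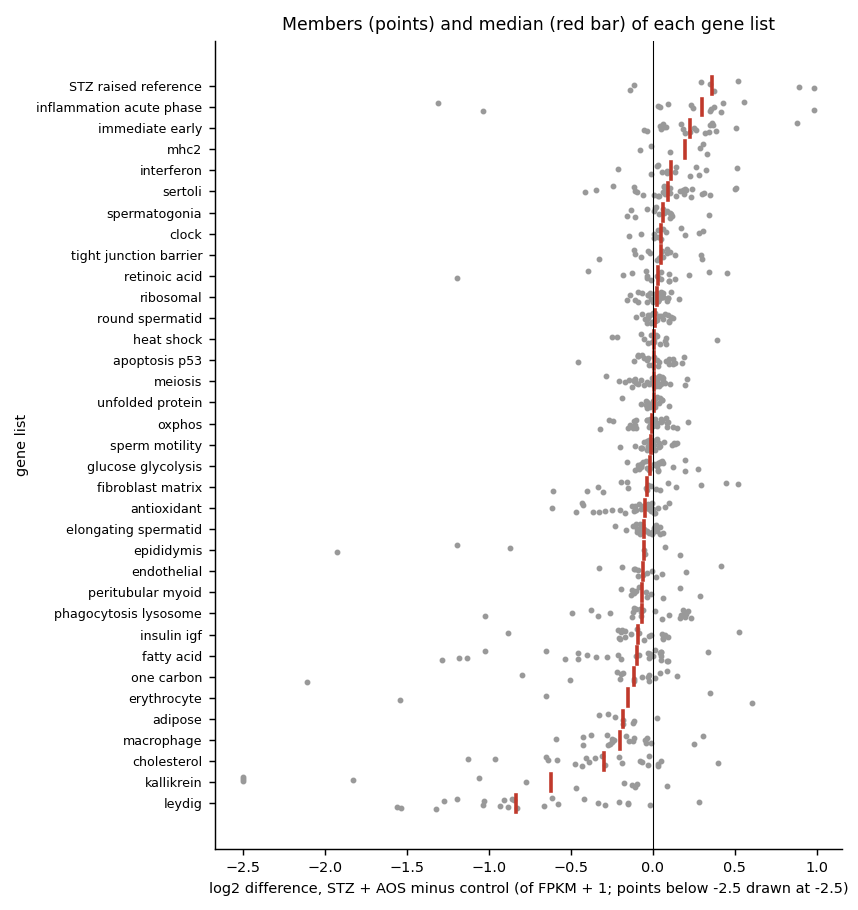
Each grey point is a tested member of the gene list named on the y axis, at its log2(FPKM + 1) difference, STZ + AOS minus control, on the x axis, and the red bar is the median of the list. Leydig (−0.84) and kallikrein (−0.62) medians lie lowest, and the germ cell lists lie near zero.

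Germ cell genes lay close to control, with narrow intervals. Of 29 elongating spermatid genes, 24 round spermatid genes, 30 sperm motility genes and 36 meiosis genes, 28, 24, 30 and 36 had an interval within 1.5-fold of control, and the medians were −0.06, 0.01, −0.01 and 0.01. Without STZ + AOS replicate 2 or control replicate 1 that of the elongating spermatid genes was −0.02, and without control replicate 3 that of the round spermatid genes was 0.03. None of them was called in the limma fits of 18, 15 or 6 libraries, and at an unadjusted p under 0.05, 2 were higher (4.47% of all genes) and 2 lower (3.51%) of all 4 lists together. In the order above, 4, 1, 1 and 7 genes had all STZ + AOS libraries below all controls (8.86% of all genes). The reverse held for 0, 1, 3 and 1 (8.92%). Of the elongating spermatid genes 21 were below zero (72.4%, against 48.8% of all genes). Prm2 was at 12848, 10130.3 and 11349 FPKM in control and at 11383, 9939 and 11079 in STZ + AOS (−0.08, interval −0.47 to 0.31). Tnp1, a transition protein that precedes the protamines, was at 6830.5, 6377 and 6085 against 6558, 5625 and 6810.2 FPKM (−0.03, interval −0.36 to 0.31). Both genes overlapped between the groups. The STZ libraries of Prm2 lay below control and STZ + AOS, at 4562 to 8555 FPKM. Those of Tnp1, at 3178 to 5885 FPKM, lay below control but overlapped STZ + AOS. Protamine and transition protein genes together took 7.35 ± 0.444% of summed FPKM in control and 7.38 ± 0.389% in STZ + AOS (SD, n = 3). Acrv1, an acrosome protein of round spermatids, was at 289, 300.1 and 307 against 292, 300.3 and 283 FPKM. Sycp3 was at 189.97, 195 and 184 against 190.1, 199.9 and 195 FPKM. Among 17 spermatogonial genes Stra8, which responds to retinoic acid at the entry to meiosis, was the member higher at an unadjusted p under 0.05, at 5.76, 9.13 and 8.4 against 9.86, 12.5 and 7.98 FPKM (0.34, adjusted p = 0.611).

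The 8 genes described earlier as the most raised by STZ in these same libraries were compared with control in the same way. The list was chosen on these samples and is no independent evidence of direction. None was called in the 18-, 15- or 6-library limma fit, 2 were higher at an unadjusted p under 0.05 (4.47% of all genes), and the median was 0.36 against 3.23 in STZ minus control. The former was 0.107 without STZ + AOS replicate 1 and 0.544 without replicate 3. Serpina3n, an acute-phase protease inhibitor, was at 2.98, 3.65 and 4 FPKM in control, at 13.1, 10.9 and 3.27 in STZ + AOS and at 31.5, 82.7 and 50.1 in STZ (0.98, interval 0.21 to 1.75, adjusted p = 0.492). Apod, a lipocalin that carries lipids, was at 0.39, 0.55 and 0.69 in control, at 2.92, 1.66 and 1.23 in STZ + AOS and at 26.9, 12.1 and 10.4 in STZ (0.89, interval 0.28 to 1.503, adjusted p = 0.409). Apod did not overlap between the groups, and Serpina3n did through STZ + AOS replicate 3. STZ + AOS replicate 1 was the high library for several others: Timp1, an inhibitor of matrix proteases, was at 7.55, 2.89 and 2.42 FPKM against 2.29 to 2.56 in control, and Bpifa2 at 1.34, 0.08 and 0.16 against 0.08 to 0.16. Lrg1 followed the same order, at 6.74, 4.24 and 3.08 against 3.11 to 3.59 FPKM. Spp1, which encodes osteopontin, was at 2.79, 1.48 and 2.66 FPKM against 2.29 to 2.9 in control and 35.1 to 85.3 in STZ, and Gpnmb at 0.25 to 0.37 against 0.24 to 0.72. Mgp, a matrix protein that inhibits calcification, was at 12.6 to 18.6 FPKM against 9.26 to 14.1. The intervals of all 8 reached beyond 1.5-fold in at least 1 direction, so differences larger than that were not excluded for any of them. Before adjustment those of Serpina3n and Apod lay above zero, and those of the others included zero.

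**Figure D5:**
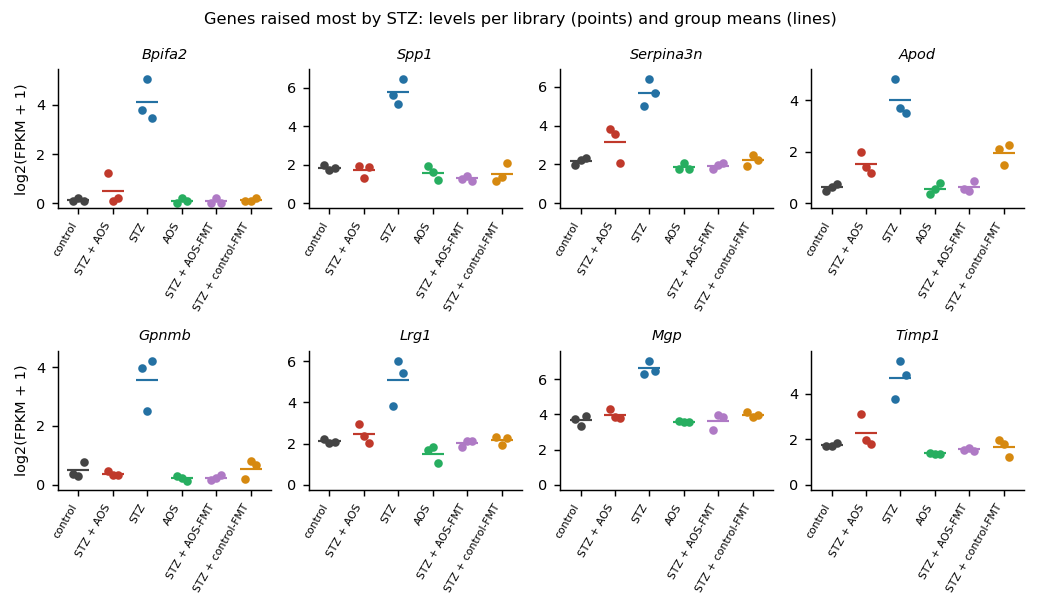
Levels as log2(FPKM + 1) in all 18 libraries (points) with group means (lines) for the 8 genes earlier described as most raised by STZ. The STZ + AOS libraries lie near control for most genes, and replicate 1, the leftmost point of the group, is the highest of the 3 for all 8 genes.

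The single markers of other tissues and cells named next had intervals that included zero, which did not hold for every member of such lists. At an unadjusted p under 0.05, 1 of 6 MHC class II genes and 1 of 4 red cell genes were higher (4.47% of all genes). Of 13 endothelial genes 1 was higher and 1 lower, and of 18 fibroblast and matrix genes 2 were lower (3.51% of all genes). Of 12 peritubular and 8 fat genes 0 were higher or lower. Acta2 of peritubular muscle was at 19.8 to 23.0 FPKM in control and at 21.7 to 22.8 in STZ + AOS. Cd74, the invariant chain of MHC class II, was at 9.3 to 10.2 against 10.7 to 15.6 FPKM (0.31, interval −0.35 to 0.96). Adipoq of fat was at 9.43 to 11.5 against 8.78 to 9.86 FPKM. Hba-a1 of red cells was higher in each STZ + AOS library, at 115 to 192 against 85.6 to 110 FPKM (0.60, interval −0.52 to 1.72), and its part in other results was not tested. It was the highest of 4 tested red cell genes, of which 2 were above and 2 below zero, the lowest at −1.55. Their median was −0.15, or −0.75 with a pseudocount of 0.1 and 0.35 with a filter at 5 FPKM. Summed FPKM of the epididymal list was 331 to 355 in STZ + AOS and 279.6 to 538 in control, the top value being control replicate 3. Of the lymphocyte list 2 genes were expressed enough to be tested, and neither passed.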

How the data were processed

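Per the labels' protocols, testes were frozen, total RNA was taken with Trizol and cleaned on a column, and standard Illumina libraries followed. The authors deposited 1 table with a value per gene and library, and per the file header no unit is named. The deposited values, made by the authors from aligned reads by a scaling that no header or label records, were taken as FPKM, since the smallest non-zero value of a gene falls with transcript length. RPKM cannot be distinguished, and TPM with genes left out of the table is possible. The submitters' processing notes name Bowtie 0.12.2 and mm10 without a role, while counter and annotation were not stated there. Bowtie places reads without gaps, which can lower the yield across exon junctions, and how reads of near-identical genes were shared is not stated.

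From these values, limma 3.58.1 (R 4.3.3) was run with a trend on log2(FPKM + 1) for the 14164 of 20985 genes at 1 or more in at least 3 of 18 libraries. The model had a mean per group over all 6 groups and no replicate block, and the two-sided contrast was STZ + AOS minus control with Benjamini-Hochberg adjustment over all tested genes (called under 0.05). On simulated data of this comparison over 14164 genes, 68.7% of genes changed by 0.5 on the log2 scale were recovered, 97% of those changed by 1 and 98.5% of those changed by 2, with 7 false among 183 calls. The changed genes were 200 drawn at random, and 183 calls make the adjustment laxer than the 6 calls of the real fit. These shares therefore do not carry over to genes of wide spread, such as the Leydig cell genes (median SE 0.302 against 0.0988 over all genes). In the real fit Bhmt (−2.11) and Cyp17a1 (−1.56) were not called. Gene lists, 36 of them, are described by counts and medians, and no list was tested. Sums over lists were given as values, since 3 against 3 libraries cannot go below an exact permutation p of 0.1. Members and lists were chosen with earlier results of these data known.

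Because fewer than 10 genes were called, the genes named were the 10 of smallest p on each side, up to 3 members of each list holding a called gene, 16 cell markers and the 8 genes described earlier as most raised by STZ. Genes picked outside this rule carry a remark to that effect, and all 12 tested kallikreins are given. Symbols turned into dates (26) or numbers (11) by a spreadsheet are not named. Some list members are not reported here by name. Coordinates are from GENCODE M21 (GRCm38), which matched 20249 symbols (96.5%), and upstream sequences from RefSeq (GRCm38.p6), which held 12 of 12 tested kallikreins and 17 of 24 tested Leydig genes. Alternatives changed the pseudocount, the filter, the scaling, the trend, the block and the libraries in the fit.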

Additional observations from a re-analysis of the deposited data

How the results depend on the processing

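With only the 6 libraries compared, 6 genes were called higher and 70 lower. With median centring the counts were 4 and 8, and with median centring of the 6 libraries 4 and 62. Without the 3 STZ libraries they were 38 and 126, without STZ replicate 1 they were 32 and 115, and without STZ replicate 3 there were 12 lower. With no filter, or with a filter at 5 FPKM, 1 gene was called higher. The fits without STZ libraries, and centring or blocking within the 6 libraries, were chosen after seeing the data. Leaving out each of the 6 libraries gave 0 to 1 higher and 0 to 6 lower in the 18-library limma fit, and 12 to 71 higher and 55 to 124 lower in the 15-library fit (12 and 93, 12 and 55, and 71 and 124 without STZ + AOS replicates 1, 2 and 3, and 18 and 71, 15 and 95, and 13 and 66 without control replicates 1, 2 and 3). Each of these fits held a library fewer than its full fit, and the cause of the change in the counts was not tested. The pseudocount of 0.1, quantile normalization (2 higher, 5 lower) and the fit without a trend kept both counts within 1.5 times.

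Replicate numbers are shared by the groups, but same-numbered STZ + AOS and control libraries deviated together with correlations of 0.043, 0.00251 and 0.0127 only, so the numbers do not pair them. With the replicate block, 3 genes were called higher and 5 lower over 18 libraries, with Aplp1 at an adjusted p of 0.059 (limma, Benjamini-Hochberg), and 1 and 38 over the 6 libraries.

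Differences near zero changed sign. Tnp1 was at 0 with quantile normalization, and over the fits without 1 library it ranged from −0.0808 to 0.0571, above zero without STZ + AOS replicate 2 and, at 0.0185, without control replicate 1. Prm2 ranged from −0.163 to 0.00794 (without control replicate 1), Spp1 from −0.252 to 0.0538 (without STZ + AOS replicate 2) and Gpnmb from −0.201 to 0.0348 (without control replicate 3). The 6 called genes kept their direction in every fit that held them, with adjusted p of up to 0.0806 for Klk1b21, 0.0545 for Klk1b24, 0.0633 for Klk1b27, 0.169 for Gsta3, 0.234 for Aplp1 and 0.156 for Iglon5 (limma). The number of reads is not known from the table, so what depth limits could not be computed.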

Other observations

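Among the 70 genes called lower when only the 6 libraries entered the limma fit, the following belong to no list described above and were chosen after their values were seen. Ugt1a6b, a glucuronosyltransferase, was at 14.6, 15.9 and 14.1 FPKM in control and at 6.3, 5.51 and 6.72 in STZ + AOS (adjusted p = 0.00214 in the 6-library fit and 0.262 in the 18-library fit). Gstm2, a glutathione transferase, was at 349, 311 and 317 against 224, 174 and 192 FPKM (0.0237 and 0.386). Apoc1, an apolipoprotein, was at 92.2, 71.04 and 71.8 against 30.3, 24.3 and 35.2 FPKM (0.012 and 0.438). The groups did not overlap for these genes. As for the Leydig cell genes, STZ replicate 1 was near or below STZ + AOS, at 4.25 FPKM for Ugt1a6b and 29.6 for Apoc1, and STZ replicates 2 and 3 were higher, at 10.8 and 16.5 and at 159 and 182. Apln, the peptide ligand apelin, was at 3.43, 5.85 and 6.47 FPKM in control and at 1.03, 0.39 and 1.56 in STZ + AOS (0.0492 and 0.175).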
